A study of Homo sapiens with 7 samples.

Results

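Rb binding was examined at the promoters of 73 splicing factor genes among 19970 protein-coding genes on chromosomes 1 to 22 and X. The genes were chosen by symbol alone: every protein-coding GENCODE gene of the SRSF, HNRNP, SF3A and SF3B (SF3 below), SNRP and PRPF families. This gave 12 SRSF genes, 27 HNRNP genes, 9 SF3 genes, 12 SNRP genes and 13 PRPF genes. A gene was said to carry a promoter peak in a library when a called peak overlapped the region from 2000 bp before to 500 bp after any of its transcription start sites (TSSs) by at least 1 bp. The other 19897 protein-coding genes, treated in the same way, gave the background.

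Splicing removes introns from pre-mRNA in the spliceosome, a machine of small nuclear RNAs and proteins. SNRP genes encode proteins of the small nuclear ribonucleoproteins (snRNPs), among them the Sm proteins that form a ring around the RNA. SF3A and SF3B proteins belong to the U2 snRNP, which recognizes the branch point, and PRPF genes encode pre-mRNA processing factors, many of them in the U4/U6.U5 tri-snRNP. SRSF genes encode serine/arginine-rich proteins that bind exonic sequences and mostly favour exon inclusion, whereas many hnRNP proteins bind nascent RNA and can oppose it. Rb, the retinoblastoma tumour suppressor encoded by RB1, is held at promoters largely through E2F transcription factors when it is not phosphorylated by CDK4 and CDK6.

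Binding was measured by CUT&RUN, in which a nuclease tethered to an antibody releases the DNA around a bound protein. The 7 libraries were made from ZR-75-1 cells, a breast cancer line that expresses the oestrogen receptor. Parental cells were treated for 4 days with DMSO or 500 nM palbociclib, a CDK4/6 inhibitor, with 2 Rb libraries for each treatment. RB1 KO cells, made by CRISPR-Cas9 editing and single-cell sorting, had 1 Rb library with DMSO and 1 with palbociclib, and parental cells with palbociclib had 1 library with a non-targeting IgG2a antibody. The comparison asked where Rb lies on chromatin before and after CDK4/6 inhibition, and the RB1 KO and IgG2a libraries show what is called without Rb or without its antibody.

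On chromosomes 1 to 22 and X 922 and 753 peaks were listed for the DMSO libraries, 8314 and 8171 for the palbociclib libraries, 4 and 5 for the RB1 KO libraries, and 1724 for IgG2a. The values used below are the fold enrichment of each peak, which is the fragment pileup over the local background at its summit, and the pileup itself, recovered as a whole number of fragments. The smallest pileup called in a parental list was 5 or 6 fragments. Lists hold only what passed the caller's threshold, so a gene without a peak has an unknown lower value and not a zero, and no fold can be given against it. That threshold was stricter in the DMSO lists, whose weakest peaks had a −log10 p of 5.23 and 5.33 against 4.15 in both palbociclib lists.

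Most splicing factor promoters carried an Rb peak after palbociclib, and a minority carried one before. With DMSO 17 and 13 of the 73 genes had a promoter peak, and with palbociclib 53 and 53. The group means were 15 ± 2.83 genes (SD, n = 2) and 53 ± 0, a difference of 38 genes. The palbociclib libraries both lay above the DMSO libraries, but 2 libraries against 2 cannot give a p below 0.33, the value found by the exact permutation test, two-sided.

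As shares, these were 23.3% and 17.8% of the splicing factor genes with DMSO and 72.6% in each palbociclib library. The other protein-coding genes had a promoter peak in 5.16% and 4.23% with DMSO and in 39.5% and 38.9% with palbociclib. The splicing factor share thus exceeded the share of other genes by 18.1 and 13.6 percentage points in the DMSO libraries and by 33.1 and 33.7 points in the palbociclib libraries. The excess differed between treatments by 17.5 points (exact permutation test, two-sided, p = 0.33, the smallest possible). When both gene groups were limited to those with a CpG-rich promoter, the excess was 19.8 and 15.6 points with DMSO and 28.6 and 27.9 points with palbociclib, a difference of 10.5 points with the groups apart (exact permutation p = 0.33). All 73 genes set against CpG-rich other genes alone gave an excess of 15.8 and 11.6 points with DMSO and 15.7 and 16.9 points with palbociclib, a difference of 2.60 points (exact permutation p = 0.667), but 18 of the 73 are not CpG-rich.

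The difference between treatments depended on the length of the lists. When each parental list was cut to its 753 peaks of highest −log10 p, the splicing factor genes with a promoter peak numbered 15 and 13 in the DMSO libraries and 13 and 14 in the palbociclib libraries. Palbociclib minus DMSO was then −0.50 genes on average, and the groups overlapped. The excess over other genes was 16.3 and 13.6 points with DMSO and 13.5 and 14.8 points with palbociclib in these lists. With 1 common minimum of −log10 p (5.33) for all lists, the numbers were 17 and 13 against 51 and 52.

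**Figure D1:**
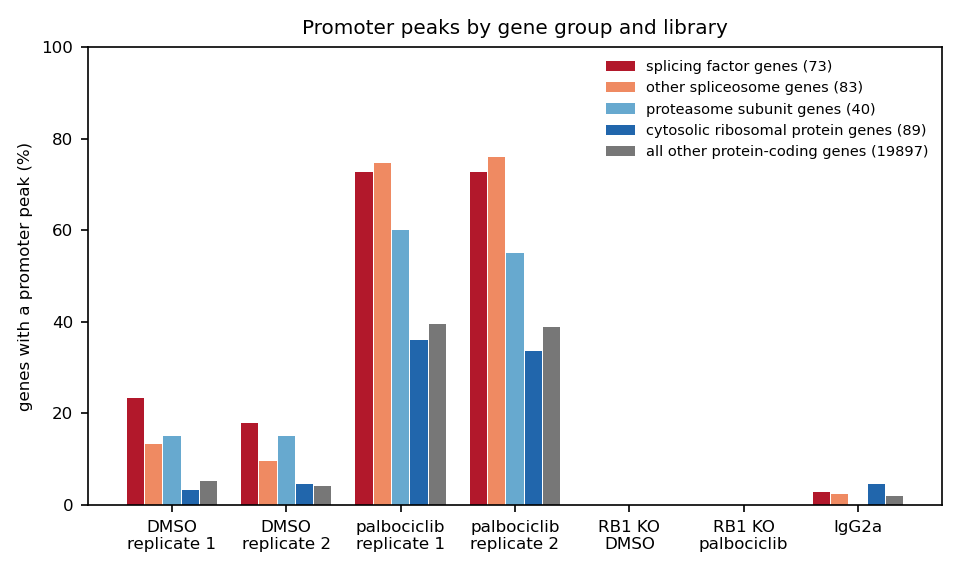
Percentage of genes with a promoter peak (vertical axis) in each of the 7 libraries (horizontal axis), with bars for the splicing factor genes and 4 comparison groups; each bar is 1 library. The splicing factor bars reach 72.6% in both palbociclib libraries and 23.3% and 17.8% in the DMSO libraries.

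None of the 73 genes had a promoter peak in either RB1 KO library, where 0.00503% of the other genes (1 gene) had one in each list. RB1 itself was not checked in those cells, since peak lists do not show a small edit, and 1 library of each treatment allows no test. With IgG2a, 2 genes (2.74%) had a promoter peak against 1.95% of the other genes. These were SRSF1, with a fold enrichment of 6.47 and a pileup of 10 fragments, and SNRPE, with 4.12 and 9 fragments. At SRSF1 the Rb pileup with palbociclib was 72 and 65 fragments, in peaks that overlapped the IgG2a peak. At SNRPE the Rb pileup was 21 and 26, in peaks that did not overlap the IgG2a peak. The summit of that IgG2a peak lay at −393 bp from the nearest TSS.

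The genes were sorted by the parental lists in which they had a peak. A peak in all 4 lists was found at 11 genes (15.1%, against 2.86% of other genes). Every splicing factor gene called in both DMSO libraries was in this class, as were all 569 other genes called in both. A further 8 genes (11%, against 3.63%) had a peak in both palbociclib lists and in 1 DMSO list. Gained peaks, called in both palbociclib lists and in neither DMSO list, were found at 32 genes (43.8%, against 28.3%). Together, 51 genes (69.9%) had a peak in both palbociclib lists, against 34.8% of other genes. A peak in 1 palbociclib list only was found at 4 genes (5.48%, against 8.83%), and 18 genes (24.7%, against 56.4%) had no parental peak.

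**Figure D2:**
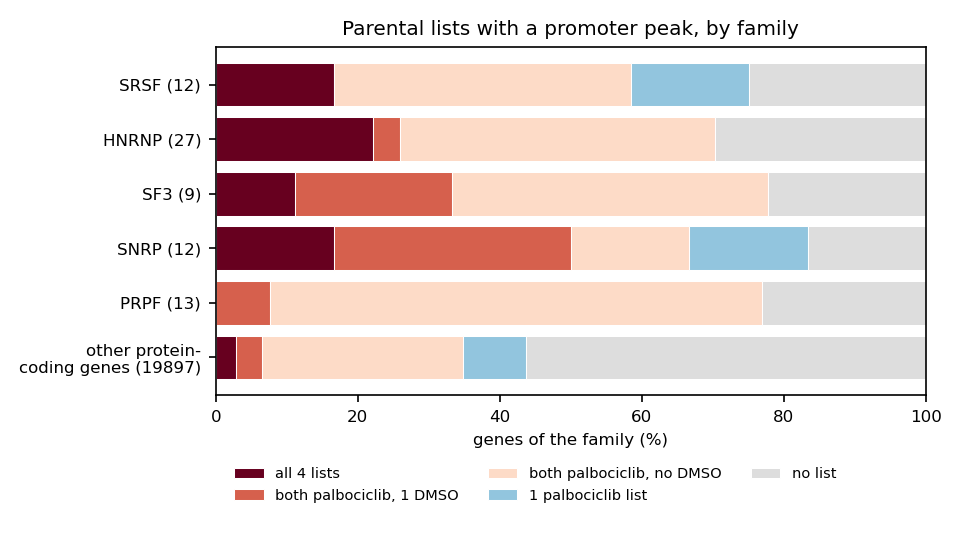
Percentage of each family's genes (horizontal axis) by the parental lists in which a promoter peak was called, with the number of genes in parentheses. The SNRP bar holds 50% of genes with a DMSO peak and the PRPF bar 7.69%, and the share with a peak in both palbociclib lists runs from 58.3% in SRSF to 77.8% in SF3.

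The families held 9 to 27 genes each, and no difference between them was tested. A peak in at least 1 DMSO list was found at 6.52% of other genes. SNRP genes had one at 6 of 12 genes (50%), SF3 genes at 3 of 9 (33.3%), HNRNP genes at 7 of 27 (25.9%) and SRSF genes at 2 of 12 (16.7%), whereas PRPF genes, at 1 of 13 (7.69%), lay near the share of other genes. In palbociclib replicate 1 the shares were 75% for SNRP, 77.8% for SF3, 70.4% for HNRNP, 66.7% for SRSF and 76.9% for PRPF, and replicate 2 gave the same shares. The median fold enrichment of the PRPF genes with a peak was 6.81 and 5.73 in the palbociclib libraries, against 7.75 and 7.74 for other protein-coding genes. It was 7.45 and 10.9 for SF3, 8.78 and 9.34 for SRSF, 11.2 and 11.1 for HNRNP and 14.3 and 12.9 for SNRP.

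Among the SRSF genes, SRSF1 and SRSF2 carried a peak in all 4 parental lists. SRSF1, an SR protein with a well-known role in exon definition and an oncogene when overexpressed, had fold enrichments of 7.40 and 3.67 in the DMSO libraries and 23.8 and 20.1 in the palbociclib libraries. Its peak lay at chr17:58006657-58008016 in palbociclib replicate 1. The fold enrichment of SRSF1 in DMSO replicate 2 was below the 6.47 of its IgG2a peak, although the pileup was higher, at 16 against 10 fragments. SRSF2, which is recurrently mutated in myeloid malignancies, had 4.96 and 5.20 with DMSO and 19.3 and 21.7 with palbociclib. For both genes the lower palbociclib value was above the higher DMSO value, as at every other gene called in all 4 lists.

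SRSF4 had the second highest gained peak of all the genes, with 15.3 and 17.2 in the palbociclib libraries. SRSF10, SRSF11, SRSF6 and SRSF9 were also gained, with means between 5.40 and 9.09. For SRSF11 and SRSF9 these means join peaks at different TSSs. The strongest SRSF11 summit lay at −15751 bp from the canonical TSS in palbociclib replicate 1 and at 61 bp in replicate 2. For SRSF9 the distances were 189 and −26545 bp. SRSF5 was called in palbociclib replicate 2 only (5.45) and SRSF7 in replicate 1 only (5.08), with pileups of 8 and 9 fragments that are near the smallest pileup called. The SRSF5 summit lay at another TSS of the gene, −40242 bp from the canonical TSS. SRSF3, an SR protein that autoregulates its own splicing, had no promoter peak in any library, and neither had SRSF8 or SRSF12.

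The HNRNP family had a peak in all 4 lists at 6 of 27 genes (22.2%, against 2.86% of other genes) and held the strongest peak of the 73 genes. HNRNPA0, whose protein binds AU-rich RNA, had 14.2 and 11.1 with DMSO and 48.5 and 53.0 with palbociclib, at chr5:137754138-137755115. HNRNPL, a regulator that binds CA-rich RNA, had 8.24 and 8.68 with DMSO and 46.2 and 38.6 with palbociclib. HNRNPUL1 had 16.1 and 8.75 with DMSO and 42.9 and 36.1 with palbociclib. At all 3 genes both treated values were above both untreated values, as at every other gene called in all 4 lists.

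HNRNPA1, which binds exonic silencers, had 5.10 and 6.95 with DMSO and 36.4 and 26.9 with palbociclib, which was the highest ratio of palbociclib to DMSO among the 11 genes. HNRNPK, which binds C-rich RNA, had 4.03 and 4.83 with DMSO and 18.5 and 18.6 with palbociclib. HNRNPR had 5.19 and 7.15 with DMSO and 11.2 and 15.8 with palbociclib, which was the lowest ratio of the 11. HNRNPA3 was called in 1 DMSO library (4.12) and had 25.9 and 18.7 with palbociclib.

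Of the 12 gained HNRNP peaks, that of HNRNPAB was the strongest gained peak of any of the genes, with 23.2 and 22. HNRNPF had 13.3 and 11.3, HNRNPDL 13.3 and 11.1, HNRNPLL 10.6 and 11, and HNRNPD, whose protein AUF1 binds AU-rich elements, 10.9 and 10.1. HNRNPC, whose protein binds uridine tracts, had 8.97 and 11.1. These values lay among or below those of the genes that were called already with DMSO.

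HNRNPU, the scaffold attachment factor, had 10.3 and 7.03, and HNRNPA2B1 had 8.62 and 6.99. HNRNPH1, HNRNPM, HNRNPUL2 and the read-through HNRNPUL2-BSCL2 were also gained, the last 2 through the same peak. The HNRNP genes with no parental peak were HNRNPH2, HNRNPH3, the HNRNPA1-like genes HNRNPA1L2 and HNRNPA1L3, and HNRNPCL1, HNRNPCL2, HNRNPCL3 and HNRNPCL4. Without the read-through and the HNRNPA1L and HNRNPCL genes, the share of all splicing factor genes with a peak was 78.8% in both palbociclib libraries.

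The windows of 200 bp around the summit in palbociclib replicate 1 are shown for the 4 strongest genes called in all 4 lists and the 2 strongest gained genes, since these carry the highest values of the 2 classes. They are hg38 sequence along the gene, 5′ to 3′, with matches to the letters searched below in capitals.
HNRNPA0, chr5:137754540-137754739, minus strand: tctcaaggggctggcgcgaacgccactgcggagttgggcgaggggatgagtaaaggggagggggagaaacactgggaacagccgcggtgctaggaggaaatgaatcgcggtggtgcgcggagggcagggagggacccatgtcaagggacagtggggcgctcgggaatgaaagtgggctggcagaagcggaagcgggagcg
HNRNPL, chr19:38850192-38850391, minus strand: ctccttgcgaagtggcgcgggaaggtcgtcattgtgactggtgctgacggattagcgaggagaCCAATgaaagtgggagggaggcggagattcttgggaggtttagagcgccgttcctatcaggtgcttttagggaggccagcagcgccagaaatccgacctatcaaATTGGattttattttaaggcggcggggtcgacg
SNRPD3, chr22:24555233-24555432, plus strand: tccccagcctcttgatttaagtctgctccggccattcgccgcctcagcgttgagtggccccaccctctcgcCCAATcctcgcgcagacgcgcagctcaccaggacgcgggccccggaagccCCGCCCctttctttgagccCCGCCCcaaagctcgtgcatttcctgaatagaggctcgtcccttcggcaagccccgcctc
HNRNPUL1, chr19:41263935-41264134, plus strand: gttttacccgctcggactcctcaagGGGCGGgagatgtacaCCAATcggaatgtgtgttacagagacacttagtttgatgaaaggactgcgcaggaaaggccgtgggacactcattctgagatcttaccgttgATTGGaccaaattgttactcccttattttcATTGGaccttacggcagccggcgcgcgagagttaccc
HNRNPAB, chr5:178204398-178204597, plus strand: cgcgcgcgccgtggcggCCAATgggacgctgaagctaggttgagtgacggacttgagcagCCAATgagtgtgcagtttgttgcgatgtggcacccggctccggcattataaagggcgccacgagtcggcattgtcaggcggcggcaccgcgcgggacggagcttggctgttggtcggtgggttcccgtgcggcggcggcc
SRSF4, chr1:29181683-29181882, minus strand: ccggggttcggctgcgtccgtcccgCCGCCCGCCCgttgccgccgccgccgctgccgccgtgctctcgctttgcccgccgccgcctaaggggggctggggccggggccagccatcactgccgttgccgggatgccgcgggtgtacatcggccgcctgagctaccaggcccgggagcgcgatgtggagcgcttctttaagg

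Among the SF3 genes, SF3A1, a U2 snRNP subunit, was called in all 4 lists, with 4.61 and 7.69 with DMSO and 27.5 and 24.8 with palbociclib. SF3B6, whose protein lies beside the branch point, was called in DMSO replicate 1 only (6.64) and had 29.0 and 34.9 with palbociclib, the highest of the genes outside the 11. SF3B3 was called in DMSO replicate 1 (4.96) and had 9.06 and 13.3 with palbociclib. SF3A2, SF3A3, SF3B2 and SF3B4 were gained, with means between 4.17 and 9.20. SF3B1, the branch point protein that is mutated in myelodysplasia and in some breast cancers, had no promoter peak in any library, and neither had SF3B5. The nearest palbociclib peak to an SF3B1 TSS was 64926 bp away.

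Of the 12 SNRP genes 8 had a peak in both palbociclib lists (66.7%, against 34.8% of other genes). SNRPD3, an Sm gene, had 15.3 and 8.69 with DMSO and 35.6 and 44.4 with palbociclib. SNRPA, a U1 snRNP protein gene, had 9.51 and 9.18 with DMSO and 36.8 and 26.1 with palbociclib. SNRPB, SNRPD1, SNRPE and SNRPF, also Sm genes, were each called in 1 DMSO library.

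SNRPB had 5.20 in DMSO replicate 1 and 18.8 and 15.7 with palbociclib, and SNRPD1 had 5.40 in DMSO replicate 2 and 14.3 and 15.2 with palbociclib. SNRPF had 5.76 in DMSO replicate 1 and 14.9 and 12.9 with palbociclib. SNRPE, which also had an IgG2a peak, had 4.42 in DMSO replicate 2 and 7.0 and 4.75 with palbociclib. SNRPE was thus the weakest of the Sm genes with a DMSO peak. SNRPD2 and SNRPA1 were gained. SNRPC, also a U1 snRNP protein gene, was called in palbociclib replicate 2 only (5.81) and SNRPB2 in replicate 1 only (4.62), and SNRPG and SNRPN, the imprinted SmN gene, had no parental peak.

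Of the 13 PRPF genes 9 were gained (69.2%, against 28.3% of other genes). None was called in both DMSO libraries, where 2.86% of other genes were. PRPF3, a tri-snRNP protein and a retinitis pigmentosa gene, had 13.3 and 15.6, PRPF38A 11.2 and 9.79, and PRPF39 13.5 and 7.49, which was the largest absolute log2 ratio (0.84) between the palbociclib replicates among the 51 genes called in both. PRPF31 and PRPF6, also tri-snRNP proteins, PRPF38B and PRPF40B were gained with means from 4.29 to 6.99.

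PRPF8, at the catalytic centre of the spliceosome, had 4.77 and 4.22, and PRPF19, a ubiquitin ligase of the spliceosome, had 3.74 and 3.51, the lowest values of the 51 genes. PRPF18, PRPF4 and the kinase gene PRPF4B had no parental peak.

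**Figure D3:**
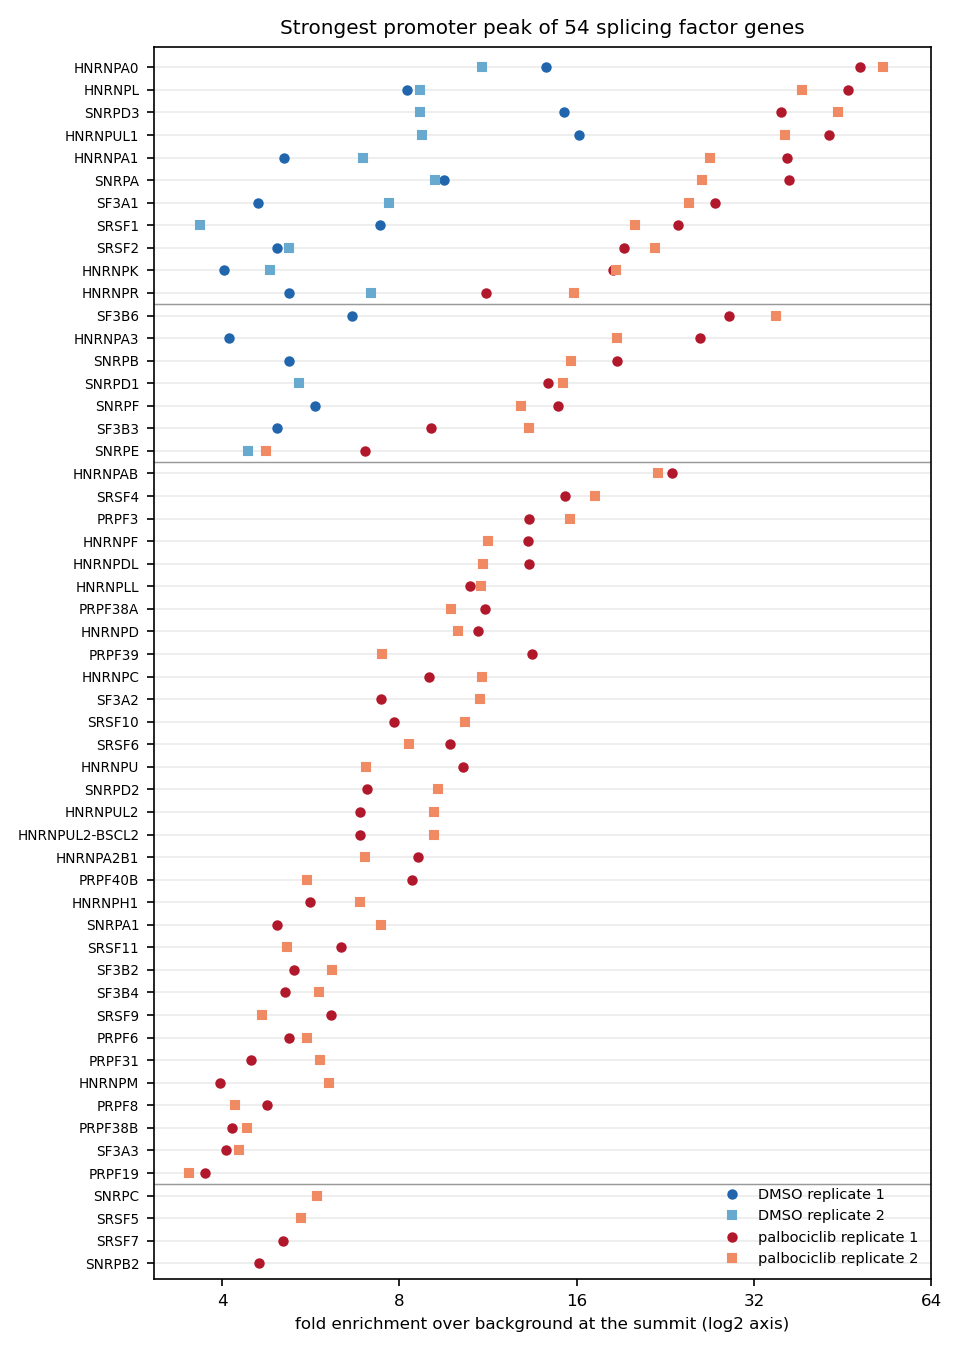
Fold enrichment of the strongest promoter peak (horizontal axis, log2 scale) of 54 splicing factor genes with a parental peak, 1 point per library in which a peak was called. From the top, the blocks hold the 11 genes called in all 4 lists, 7 called in 1 DMSO list, the 32 gained genes and the 4 called in 1 palbociclib list; in the first block every palbociclib point lies to the right of both DMSO points.

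The 11 genes called in all 4 lists allow the same promoters to be compared. Their median fold enrichment was 7.40 and 7.69 in the DMSO libraries and 35.6 and 26.1 in the palbociclib libraries. The group means of the medians were 7.55 ± 0.20 (SD, n = 2) and 30.8 ± 6.70, a difference of 23.3, with the groups apart and p = 0.33 by the exact permutation test, two-sided, the smallest possible. The mean with palbociclib was 4.02 times that with DMSO for the median gene, from 2.19 at HNRNPR to 5.25 at HNRNPA1. The other 569 genes called in all 4 lists had a median ratio of 3.64 and were also all higher with palbociclib. At each of these 569 genes, as at the 11, the lower palbociclib value was above the higher DMSO value. Fold enrichment depends on the depth and control of each library.

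Gained splicing factor peaks resembled other gained peaks in height. Their median fold enrichment was 7.25 and 7.47 in the palbociclib libraries, against 7.48 and 7.37 for the other gained genes. Over all splicing factor genes with a peak the medians were 10.3 and 10.4, against 7.75 and 7.74 for other genes. Of the 55 splicing factor genes with a palbociclib peak, 19 (34.5%) were called already with DMSO, against 14.9% of other genes with a palbociclib peak.

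Replicates placed the peak at the same position at most genes. The strongest peaks of the 2 palbociclib libraries overlapped at 47 of 51 genes, and their summits lay a median of 60 bp apart. The exceptions were SRSF11, SRSF9, SF3A3 and PRPF6, whose mean fold enrichments thus join different sites. Of these, SF3A3 had no overlapping pair among its promoter peaks. The overlap of palbociclib peaks and the summit gap were not computed for other genes, so they have no background. The median absolute log2 ratio between the palbociclib replicates was 0.26 for these 51 genes and 0.27 for other genes. All 19 genes with a DMSO peak had a palbociclib peak that overlapped it. Nearly all other genes also kept a call, since 1297 of the 1298 with a DMSO promoter peak had a palbociclib promoter peak. Overlap was not examined for those genes.

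Summits lay close to a TSS. Within 250 bp of the nearest TSS were 75.5% and 77.4% of splicing factor summits in the palbociclib libraries, against 81.4% and 82.0% for other genes. The 11 genes called in all 4 lists had summits further upstream, at a median of −217 and −249 bp, against −60 and −49 bp for the other genes of that class. Summits more than 100 bp upstream were seen at 8 and 7 of these 11 genes and at 40.2% and 39.2% of the other genes of the class. SNRPD3 (−625 and −621 bp), HNRNPL (−306 and −486 bp) and HNRNPA0 (−277 and −295 bp) were among them. The SNRPD3 peak also lay in the promoter of GUCD1 on the other strand, whereas HNRNPL and HNRNPA0 had no such neighbour. The gained genes had median summits at 1 and −14.5 bp.

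**Figure D4:**
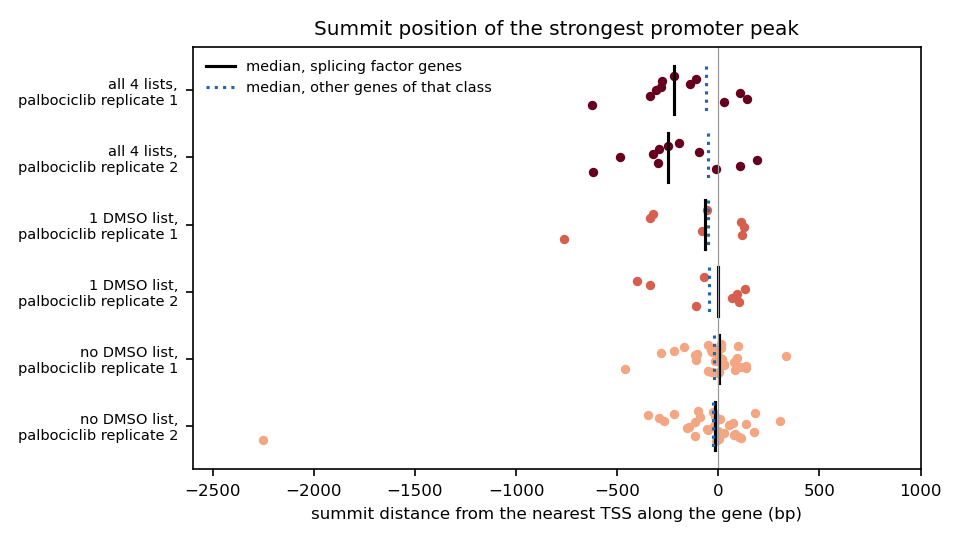
Distance of the strongest summit from the nearest TSS in bp (horizontal axis, negative is upstream) for each splicing factor gene in the palbociclib libraries, by whether the gene had a peak in both, 1 or no DMSO list. Black lines are medians of the splicing factor genes and dotted lines medians of other genes of the class; in the genes called in all 4 lists the black lines lie at −217 and −249 bp and the dotted lines at −60 and −49 bp.

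The letters of 7 motifs were looked for on either strand, up to 100 bp from each summit, in palbociclib replicate 1. E2F letters (TTTCCCGC, TTTGGCGC, TTTCGCGC or TTTGCCGC) were found in 6 of 52 distinct splicing factor windows (11.5%), against 5.35% of 6574 windows of other genes and 2.80% of windows at the canonical TSSs of all other protein-coding genes. CCAAT, the NFY motif, was in 16 windows (30.8%, against 24.5% of other windows and 25.1% at TSSs). GGGCGG, the SP/KLF motif, whose letters can overlap an E2F match, was in 30 (57.7%, against 68.6% and 53.6%). CCGGAAGT (ETS) was in 5 (9.62%, against 3.07% and 5.06%), CGCATGCG (NRF1) in 2 (3.85%, against 2.10% and 1.92%), AAGATGGCG (YY1) in 2 (3.85%, against 1.87% and 2.70%) and TGACGTCA (CRE) in none (against 1.03% and 2.03%). These are descriptions with no test, and a missing match says only that those letters are not in the window.

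The 6 genes with E2F letters, the motif of the factors through which Rb is best known to bind, are shown with 10 bases on each side in hg38 along the gene, the E2F letters in capitals.
SRSF1, chr17:58007644-58007671, minus strand: tccgagactcTTTCCCGCcaaaggccgt
HNRNPA3, chr2:177212536-177212563, plus strand: gacgcgaacgGCGGCAAAggccctcttc
HNRNPF, chr10:43409405-43409432, minus strand: cagagggatcTTTCCCGCcgctccactc
HNRNPLL, chr2:38603085-38603112, minus strand: cccggtcgacTTTCCCGCccctgccaat
SNRPB, chr20:2470534-2470561, minus strand: ctcggtctggGCGGGAAAgaccaggacc
SNRPD1, chr18:21612521-21612548, plus strand: tttgcaggagGCGGGAAAgccgcgtgtg

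These were SRSF1 among the genes called in all 4 lists, HNRNPA3, SNRPB and SNRPD1 among those called in 1 DMSO list, and HNRNPF and HNRNPLL among the gained genes. E2F letters were thus in 3 of 8 windows of the 1 DMSO list class (37.5%, against 6.87% of other windows of that class). In the gained class they were in 2 of 31 windows (6.45%, against 4.7%). The windows of genes called in all 4 lists held CCAAT at 6 of 11 splicing factor genes, against 37.4% of the other genes of that class, and E2F letters at 1 of 11, against 15.1%. The windows of HNRNPL, HNRNPUL1 and HNRNPAB above hold more than 1 CCAAT, and that of HNRNPA0 none of the letters searched.

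Many splicing factor promoters are shared with a neighbour on the other strand, and there the peak cannot be assigned to 1 gene. At 21 of 55 genes with a palbociclib peak (38.2%) the peak also lay in the promoter of an opposite-strand protein-coding gene, against 26.7% of other genes with such a peak. HNRNPA1 shared its peak with CBX5, HNRNPA2B1 with CBX3, SRSF2 with MFSD11, HNRNPK with RMI1, SRSF7 with GEMIN6 and PRPF38A with ORC1. SF3A1 shared its peak with CCDC157, SNRPA with ACTMAP, SNRPD3 with GUCD1 and SF3B6 with FAM228B. Of the 11 genes called in all 4 lists 6 had such a neighbour, and of the 32 gained genes 11. The shares among other genes of these classes were not computed, so these counts have no background.

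Promoter composition also differed between the gene groups. A CpG-rich promoter (GC content of at least 55% and observed over expected CpG of at least 0.6 within 500 bp of the canonical TSS) was found at 75.3% of splicing factor genes and 60% of other genes. Among CpG-rich genes, 81.8% of 55 splicing factor genes and 50.3% of other genes had a peak in both palbociclib lists. Among the 18 splicing factor genes without such a promoter it was 33.3%, against 11.5% of other genes. Splicing factor genes also had more TSSs, a median of 8 against 5, so more promoter windows were searched per gene. Windows of nearby TSSs overlap, and the length of sequence covered was not computed. With the canonical TSS only, 50 of the 73 genes had a peak in both palbociclib lists, against 32.2% of other genes.

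The other spliceosome genes, 83 genes outside these families listed from general knowledge, had a similar share. The list is mixed, with kinases such as CLK1 and SRPK1, snRNP assembly genes such as GEMIN2 and splicing regulators such as PTBP1. A peak in both palbociclib lists was found at 56 (67.5%), and at 4 (4.82%) in all 4 lists, where the splicing factor genes had 15.1%. The highest were LSM4 (37.2 and 37.1 with palbociclib), KHDRBS1 (23.9 and 29.0), U2AF1L4 (22.5 and 24.6), LSM3 (23.4 and 23.3) and PTBP1 (19.6 and 23.9). Other large housekeeping machines had fewer peaks, with both palbociclib lists calling 19 of 40 proteasome subunit genes (47.5%) and 26 of 89 cytosolic ribosomal protein genes (29.2%). None of these differences between gene groups was tested, since genes are not replicates.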

How the data were processed

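Rb and IgG2a CUT&RUN was measured in 7 libraries of ZR-75-1 cells, grouped by the sample titles. Per the study's methods and the submitters' processing notes, the authors trimmed the reads, used Bowtie2 2.3.4.1 for alignment (hg38), dropped reads on blacklisted regions or mitochondrial DNA, left duplicates in, and called peaks for each library with MACS2 2.2.7.1 against an IgG control at a q-value cutoff of 0.05. The control used for the IgG2a list is not given in the sources used here. The deposited lists hold, for each peak, a score, a ratio (fold enrichment at the summit), and a −log10 p-value and −log10 q-value. Read totals are not given in the lists, so depth is unknown and no interval was computed, and the pileups show the precision: their median was 13 to 17 fragments in the parental lists.

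Promoters were taken from GENCODE 44 transcripts of any biotype, on chromosomes 1 to 22 and X. The strongest promoter peak by fold enrichment stood for a gene. Pileup and background were solved from fold enrichment and −log10 p (a pseudocount of 1 on each). Groups of 2 libraries were compared by exact permutation tests, which measure the spread between these libraries only. The study describes them as biological replicates. Groups with 1 library were not tested. The values of 1 gene are not reported here, although it is included in the counts.

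Named with values were genes called in all 4 parental lists, the 10 highest gained genes, genes in 1 palbociclib list or in an RB1 KO or IgG2a list, 15 genes fixed by symbol and the 5 highest other spliceosome genes. Other genes given with a value or a range were chosen after their values were seen, as were the genes shown for E2F letters and those named for position or shared promoters. The members and lists were chosen with earlier results of these data known. The 84 symbols written for other spliceosome genes gave 83 genes. Alternatives were other peak thresholds, lists of equal length, promoter and TSS definitions, gene sets and left-out libraries. A common −log10 p minimum and the limits to CpG-rich genes were added after the data were seen. The annotation and pileup steps were tested on simulated data. Python 3 with numpy, scipy and pysam was used.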

Additional observations from a re-analysis of the deposited data

How the results depend on the processing

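The 6 results were recomputed under 83 combinations of result and alternative, of which 76 kept the direction and, for counts, stayed within 1.5 times. Some combinations could not change, such as the replicate block or genes in both palbociclib lists without a DMSO library. For differences only a reversed sign counted as a change. The fall in excess to 2.60 points against CpG-rich other genes is therefore among the 76. Cutting each parental list to its 753 best peaks reversed the difference in splicing factor genes with a promoter peak to −0.50 genes and the difference in excess over other genes to −0.75 percentage points, and lowered the genes with a peak in both palbociclib lists to 13 (against 3.54% of other genes) and the gained genes to 3 (against 0.623%); fewer peaks were then available in the palbociclib lists by construction. Genes called in all 4 lists fell from 11 to 6 with a −log10 q of at least 5 (against 1.58% of other genes) and to 7 with a fold enrichment of at least 5 (against 2.02%), under which weaker DMSO peaks no longer count. Leaving out each library in turn gave differences of 36 to 40 genes, 15.3 to 19.8 points of excess and 18.5 to 28.0 in median fold enrichment. It gave 51 to 53 genes in both palbociclib lists (against 34.8% to 39.5% of other genes) and 34 to 38 gained genes (against 29.7% to 33%). Genes called in all remaining lists numbered 11 to 17 (against 2.86% to 5.14%). The 17 and the 5.14% were both without DMSO replicate 2. With the replicate block (libraries paired by number) the differences were the same (38 genes, 17.5 points and 23.3 in median fold enrichment) and the exact sign-flip p was 0.5, the smallest that 2 pairs allow. Same-numbered libraries deviated together only weakly (r = 0.06 across the 580 genes called in all 4 lists, which are not independent), so the numbers were not taken to pair the samples. Depth limits what can be said of genes without a peak, whose signal is unknown.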

Other observations

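HNRNPM, whose promoter peak was among the weakest gained ones (3.97 and 6.07), was the only one of the 73 genes with a peak in its gene body outside the promoters of protein-coding genes. It was called in both palbociclib libraries and in no other list, at chr19:8445607-8445898 with a fold enrichment of 4.74 and a pileup of 9 fragments, and at chr19:8445533-8445929 with 5.57 and 12 fragments. The summits lay 687 and 642 bp downstream of the canonical TSS. The gene was singled out after the values were seen. No share of other genes with a gene body peak was computed, so this count has no background.

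Of the 18 genes without a parental promoter peak, 2 had a palbociclib peak just outside the promoter as defined. HNRNPH3 had one at 636 bp in palbociclib replicate 1 but none nearer than 41775 bp in replicate 2. PRPF4B had one at 2211 and 2455 bp. The share among other genes without a parental promoter peak was not computed.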
